A study of Mus musculus with 10 samples.

Results

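The heat shock chaperones described here are 10 genes, 6 that are known as inducible (Hspa1a, Hspa1b, Hsph1, Dnajb1, Hspb1 and Hsp90aa1) and 4 that are known as constitutive (Hsp90ab1, Hspa8, Hspd1 and Hspe1). They are defined by their symbols, a list drawn up with earlier results of these data known, and each had 1 row among the 10767 genes of the deposited table of normalized counts. RNA was sequenced from CD8+ DCs of the spleen (CD11c+MHCII+CD8+CD11b-, called CD8+ cDC1 in the study) of untreated Ppef2+/+ and Ppef2-/- mice. The cells were sorted 5 times, each time from 3 pooled mice per genotype at an age of 8 to 13 weeks, which gave 5 libraries per genotype, and both genotypes carry the same sort numbers 1 to 5. Ppef2-/- mice carry a knockout-first gene trap between exons 4 and 5 of Ppef2, a calcium-binding protein phosphatase, with loxP sites around exon 5, made in JM8A3.N1 embryonic stem cells and kept on C57BL/6. The trap is present in all cells of the mouse and is not limited to DCs. Spleens were digested with DNase I and Liberase for 30 min at 37 °C before sorting, a step that libraries of both genotypes share. With 3 mice pooled per library, differences between single mice are not resolved.

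Heat shock proteins are molecular chaperones, which bind unfolded or partly folded proteins and use cycles of binding and release to keep them from aggregating. In unstressed cells the transcription factor Hsf1 is held back by chaperones, and after heat, oxidative stress or handling it binds heat shock elements, inverted repeats of the unit GAA, in front of the inducible genes. The constitutive members do the daily folding work of the cytosol and the mitochondria, and several of them can be raised by Hsf1 as well. In DCs, chaperones of the Hsp70 and Hsp90 families also accompany antigen-derived peptides, and CD8+ cDC1 are known for presenting such peptides to CD8+ T cells.

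The promoters of the members are shown because Hsf1 acts through the GAA unit. RefSeq promoter windows of 7 of the 10 members were used, on GRCm38.p6, the assembly that UCSC calls mm10 and the one used for the deposited counts. Those of Hsp90aa1, Hsp90ab1 and Hspa8 were not analysed here. The windows span 250 bases before to 50 bases after the start of the gene and read 5′ to 3′ on the strand of the gene. Capitals mark every run of the 8-base units GAANNTTC or TTCNNGAA, in which 2 GAA units face each other. Both units are their own reverse complement, so 1 search covers both strands, and neighbouring units may overlap in a longer run. The windows are Hspa1a (chr17:34972107-34972406, minus strand), Hspa1b (chr17:34959189-34959488, minus strand), Hspb1 (chr5:135887669-135887968, plus strand), Hsph1 (chr5:149636287-149636586, minus strand), Dnajb1 (chr8:83607925-83608224, plus strand) and Hspe1 (chr1:55087898-55088197, plus strand).
Hspa1a: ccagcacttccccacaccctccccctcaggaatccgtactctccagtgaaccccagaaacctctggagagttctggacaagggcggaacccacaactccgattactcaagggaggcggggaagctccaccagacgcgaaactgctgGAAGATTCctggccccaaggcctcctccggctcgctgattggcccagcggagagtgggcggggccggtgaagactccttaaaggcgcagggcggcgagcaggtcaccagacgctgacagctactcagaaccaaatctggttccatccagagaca
Hspa1b: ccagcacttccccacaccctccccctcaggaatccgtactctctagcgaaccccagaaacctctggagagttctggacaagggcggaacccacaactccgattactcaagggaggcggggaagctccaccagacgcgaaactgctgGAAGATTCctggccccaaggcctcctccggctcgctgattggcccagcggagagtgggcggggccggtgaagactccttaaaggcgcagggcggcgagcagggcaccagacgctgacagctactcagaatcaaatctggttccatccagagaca
Hspb1: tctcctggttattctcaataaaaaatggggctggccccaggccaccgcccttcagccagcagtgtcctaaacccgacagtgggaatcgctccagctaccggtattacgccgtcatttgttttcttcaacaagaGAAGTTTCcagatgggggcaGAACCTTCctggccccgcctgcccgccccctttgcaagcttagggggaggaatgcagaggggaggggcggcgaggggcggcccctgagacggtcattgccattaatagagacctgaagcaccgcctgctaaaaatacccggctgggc
Hsph1: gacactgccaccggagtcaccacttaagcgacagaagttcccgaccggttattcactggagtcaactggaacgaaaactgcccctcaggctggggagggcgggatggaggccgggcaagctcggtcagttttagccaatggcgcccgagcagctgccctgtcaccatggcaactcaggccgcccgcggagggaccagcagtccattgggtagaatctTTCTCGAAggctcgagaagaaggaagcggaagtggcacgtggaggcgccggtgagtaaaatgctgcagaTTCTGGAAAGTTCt
Dnajb1: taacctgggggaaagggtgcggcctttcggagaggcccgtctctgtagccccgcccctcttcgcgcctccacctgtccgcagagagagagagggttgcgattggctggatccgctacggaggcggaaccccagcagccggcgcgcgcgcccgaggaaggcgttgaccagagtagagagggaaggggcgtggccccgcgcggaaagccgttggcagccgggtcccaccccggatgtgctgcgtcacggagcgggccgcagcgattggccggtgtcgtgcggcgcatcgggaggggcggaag
Hspe1: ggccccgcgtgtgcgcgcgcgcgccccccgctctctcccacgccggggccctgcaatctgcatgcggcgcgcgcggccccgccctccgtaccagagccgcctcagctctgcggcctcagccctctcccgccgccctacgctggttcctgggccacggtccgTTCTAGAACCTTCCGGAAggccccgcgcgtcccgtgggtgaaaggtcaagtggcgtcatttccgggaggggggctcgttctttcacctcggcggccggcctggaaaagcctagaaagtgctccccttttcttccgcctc

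Hspa1a and Hspa1b, which encode the inducible Hsp70, are neighbours in the same orientation, and their windows were identical at 296 of 300 positions (98.7%). Each held 1 GAANNTTC unit, 104 bases before the start. Hspb1, the small heat shock protein Hsp25/27, had 2 such units, at 117 and 97 bases before its start. Hsph1, which encodes the Hsp110 nucleotide exchange factor of Hsp70, had a TTCNNGAA unit 33 bases before 1 of its 2 RefSeq starts and a run of 3 facing units 36 bases after it. From the other start the same runs lay 54 bases before and 15 bases after. Hspd1 and Hspe1, the mitochondrial chaperonin Hsp60 and its lid Hsp10, are neighbours that point away from each other. The same run of 18 bases with 4 units (chr1:55088059-55088076) lay 89 bases before the start of Hspe1 and, read on the other strand, 144 bases before 1 of the 2 RefSeq starts of Hspd1. Dnajb1, the J-domain co-chaperone that feeds substrates to Hsp70, had none of these letters in either of its 2 windows. Of 32851 promoter windows of the same length in the mouse, 7.86% held GAANNTTC, 8.52% held TTCNNGAA and 0.603% held a run of at least 3 units. A match of letters is a description of the window and not a shown binding site.

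In the GENCODE M21 annotation of the same assembly, Hspa1a (chr17:34969190-34972156) and Hspa1b (chr17:34956436-34959238) are genes of 1 exon on the minus strand. Hsp90ab1 lies on the same chromosome (chr17:45567775-45573271, minus strand), whereas Hsp90aa1 is on chromosome 12 (chr12:110690605-110702728, minus strand). Hsph1 (chr5:149614287-149636376, minus strand) and Hspb1 (chr5:135887919-135889563, plus strand) are on chromosome 5, which also carries Ppef2. Dnajb1 is at chr8:83608193-83612653 and Hspa8 at chr9:40800984-40810087, each on the plus strand. Hspd1 (chr1:55077835-55088243, minus strand) and Hspe1 (chr1:55088132-55091307, plus strand) overlap at their starts. Counts per gene add up all exons, so that positions within a gene are not resolved.

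The deposited values have a property that bears on every number below. Summing both libraries of 1 sort gives, gene by gene, a total that does not change from sort to sort (10721 genes without a value at the floor of 1, largest relative spread 6.28e-06). A difference in normalized counts within a sort is therefore kept, whereas any difference in level between sorts is missing, and a percent or a log2 difference refers to the mean level over the sorts. Both genotypes have the same SD for this reason, and each pair of libraries deviates from the genotype means by equal and opposite amounts. A fit that treats the 10 libraries as unlinked lacks the spread between sorts, so the values of the members and of named genes are also given with the sort as a block. Whole reads could be calculated back for 9603 of the 9627 genes with values under 1000. Their number per library over these genes was 1392837 to 2268394 in Ppef2+/+ (median 1510725) and 1505701 to 4404117 in Ppef2-/- (median 2228600), and the Ppef2-/- library of a sort had between 0.730 (sort 5) and 2.92 (sort 1) times the reads of its Ppef2+/+ partner. Of the members only Hspb1 and Hspe1 were low enough for this.

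The labels were checked by Ppef2, which had 816 reads in the Ppef2+/+ and 18 reads in the Ppef2-/- libraries and was lower in 5 of 5 sorts. All 16 cDC1 markers examined, among them Xcr1, Clec9a and Batf3, had values, and their sum lay between 90069 and 93316 normalized counts in every library. Of the T cell markers 1 of 8 (Cd5), of the NK cell markers 0 of 6, of the neutrophil markers 1 of 8 (S100a9) and of the B cell markers 3 of 8 had values here, the last with sums of 249 to 276 in Ppef2+/+ and 255 to 282 in Ppef2-/-.

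The chaperones were among the most abundant transcripts of CD8+ cDC1. By the mean of all libraries, Hspa1b ranked 10 of 10767 genes with 29984 normalized counts, Hspa1a ranked 15 with 27840 and Hspa8, the constitutive Hsc70, ranked 16 with 27275. Hsp90ab1, the constitutive cytosolic Hsp90, ranked 25 (13733) and its inducible paralog Hsp90aa1 ranked 77 (6437). Thus 5 of the 10 members were in the top 1% of the table, 3 inducible and 2 constitutive. Hsph1 followed at rank 259 (2734), Dnajb1 at 337 (2285), Hspd1 at 668 (1426) and Hspe1 at 1437 (760). Hspb1 was by far the lowest member, at rank 6637 with 108 normalized counts. In single libraries the rank of Hspa1b lay between 9 and 15 and that of Hspb1 between 5592 and 8173. All 10 members together made up 2.02 to 2.32% of the summed normalized counts of a Ppef2+/+ library and 1.86 to 2.16% of a Ppef2-/- library. The pair Hspa1a and Hspa1b alone accounted for 1.04 to 1.22% and 0.923 to 1.10%, respectively.

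Long genes collect more reads, so levels of different genes were compared as normalized counts per kb of merged exons (10680 genes with a length). Hspa1b (10697 per kb, rank 12) and Hspa1a (9383 per kb, rank 14) stayed on top, followed by Hspa8 (6341, rank 24) and Hsp90ab1 (4579, rank 39). The lowest library of Hspa1a was above the highest of Hspa8 and the lowest of Hspa8 above the highest of Hsp90ab1 on this scale, whereas both Hspa1 copies overlapped. The gap between Hspa1a and Hspa8 rests on the merged exons of Hspa8 (4301 bases). With its longest transcript (3158 bases), the highest library of Hspa8 exceeded the lowest of either Hspa1 copy. Hsp90aa1 (1637, rank 128) was separated from all neighbours. Dnajb1 (713, rank 300), Hspd1 (540, rank 414), Hspe1 (516, rank 426) and Hsph1 (376, rank 565) overlapped from each to the next. These ranges lack the spread between sorts, so overlaps are understated. The mitochondrial partners Hspd1 and Hspe1 lay next to each other, at 540 and 516 per kb. With the length of the longest transcript, their ranks were 482 and 349 and Dnajb1 (361) stood between them. Hspb1 (104 per kb, rank 2334) was below every other member in all libraries. The inducible class thus held the highest and the lowest level of the members per kb, from rank 12 to rank 2334, and the constitutive class lay in between. These are levels in cells of untreated mice after digestion and sorting, and the level before this handling was not tested.

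**Figure D1:**
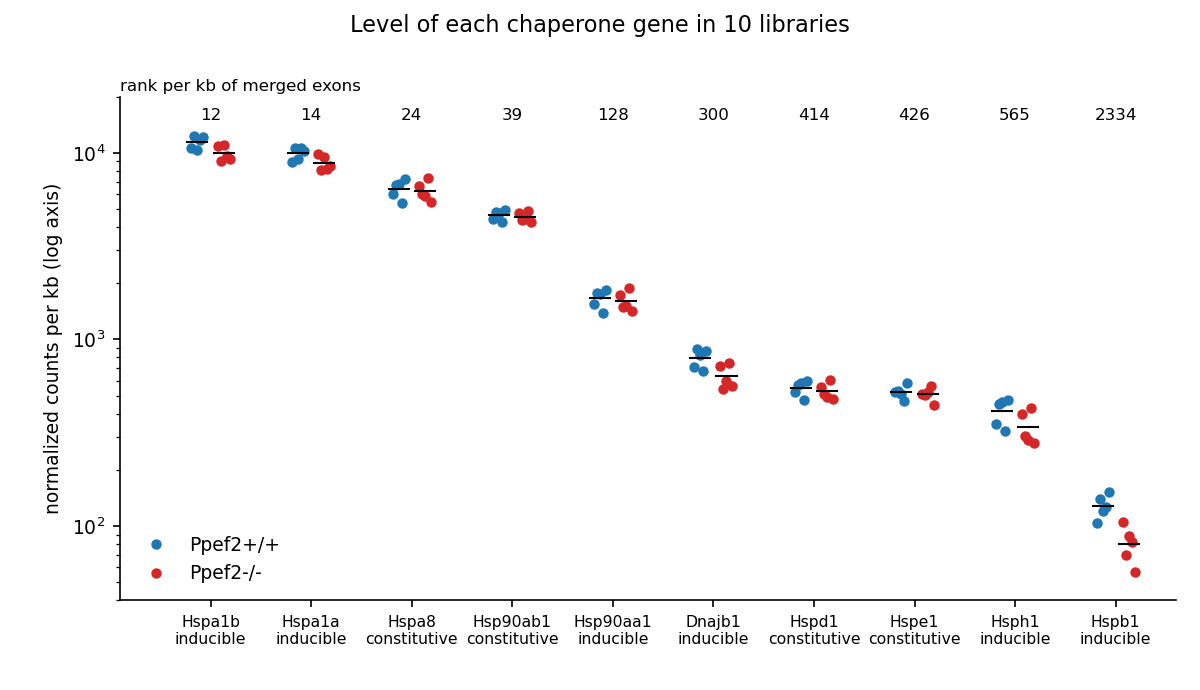
Normalized counts per kb of merged exons (log axis) of each chaperone gene in the 5 Ppef2+/+ (blue) and 5 Ppef2-/- (red) libraries, ordered by the mean, with black lines for genotype means and the rank among 10680 genes on top. Hspa1b and Hspa1a lead at ranks 12 and 14, and Hspb1 is lowest at rank 2334.

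Some values are shared between copies. Of all 50-base windows of Hspa1a transcripts, 66.3% also occurred in another gene, mostly Hspa1b (58.8%), and 62.3% of those of Hspa1b occurred in Hspa1a. How the counting divided such reads is not given in the sources used here, so the split between both copies is uncertain and their sum is the firmer value. Hspa1a made up between 47.2 and 49.3% of this sum in each library. Hspb1 shared 50.1% of its windows, mostly with the pseudogene Hsp25-ps1, Hsp90aa1 47.5%, Hspd1 42.1%, Hspa8 39.4% and Hspe1 22.8%, in most part with pseudogenes of their own. Hsp90ab1 (3.44%), Dnajb1 (0.412%) and Hsph1 (0) had few or none. Exons of Hspa1a overlap the antisense gene Gm20481 by 564 bases, and exons of Hspd1 and Hspe1 overlap by 112 bases on opposite strands, and no source used here states that strand was counted.

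Between genotypes, the mean of every member was lower in Ppef2-/- CD8+ cDC1, and the larger differences were those of inducible members. The mean of Hspb1 differed most, by 37.5%, followed by Dnajb1 (19.8% lower), Hsph1 (17.5%), Hspa1b (12.6%) and Hspa1a (11.1%). Hsp90aa1 (3.13%) differed as little as the constitutive members Hspd1 (3.94%), Hspe1 (2.77%), Hspa8 (2.57%) and Hsp90ab1 (1.96%). Without the libraries of sort 5, the log2 difference of Hsp90aa1, Hsp90ab1, Hspa8, Hspd1 and Hspe1 turned positive (0.009 to 0.052), whereas the other 5 members stayed lower in Ppef2-/-. Over all genes tested, 49.5% had a lower mean in Ppef2-/-, but the members vary together across libraries and are not 10 independent observations. In the limma fit over 10767 genes, 1 of the 10 members (Hspb1) was called lower at an adjusted p under 0.05, compared to 0.483% of all genes called lower and 0.957% called in either direction. At an unadjusted p under 0.05, 4 members were lower (Hspa1a, Hspa1b, Dnajb1 and Hspb1) beside 8.33% of all genes. With the sort as a block 0 members were called, beside 0.00929% of all genes (Ppef2 alone), and 5 inducible members had an unadjusted p under 0.05 (the same 4 and Hsph1) beside 1.99% of all genes, whereas 0 constitutive members did. For these 5, exact permutation within sorts gave p of 0.125 to 0.312. Limma draws the spread of a gene toward that of genes of like level. Only 0.166 to 16.4% of genes with a like mean had a larger SD of the differences within sorts than a member. The blocked p-values and intervals of limma therefore understate the spread of the members. Of the members 0 were lower in 5 of 5 sorts (2.92% of all genes were) and 1, Hspb1, was lower in 4 (18.1% of all genes were lower in at least 4). The genotypes overlapped in each of the 10 members, whereas 6.18% of all genes had no overlap. Since both libraries of a sort sum to a constant, no overlap means the same direction in 5 of 5 sorts and is no further result.

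Hspb1 is known to bind unfolding proteins without ATP and to guard the actin skeleton. In sorts 1 to 5, its normalized counts were 107, 143, 124, 131 and 157 in Ppef2+/+ and 108, 72.2, 91.0, 84.3 and 58.7 in Ppef2-/- libraries. The values of sort 1 were alike, and in sorts 2 to 5 the Ppef2-/- library was lower, with changes of −26.8 to −62.5%. The genotypes overlap only because the Ppef2-/- library of sort 1 slightly exceeds the Ppef2+/+ library of the same sort. The mean was 132 ± 18.7 (SD, n = 5) in Ppef2+/+ and 82.8 ± 18.7 in Ppef2-/-. The log2 difference was −0.69 (standard error 0.15, adjusted p = 0.0478 from limma), and the adjusted p from limma was 0.622 with the sort as a block. In limma, it was 0.0731 to 0.108 without a block when any library other than that of Ppef2-/- in sort 1 was left out. The exact permutation test gave p = 0.0159 for unlinked libraries and p = 0.125 when genotypes were exchanged within sorts, tests that cannot give less than 0.00794 and 0.0625.

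Because Hspb1 was low enough to be resolved, its reads can be given: 52, 82, 92, 158 and 196 in the Ppef2+/+ and 155, 69, 112, 94 and 71 in the Ppef2-/- libraries of sorts 1 to 5. Multiplied by the value of 1 read, they give levels with the sort means put back. These were 71.2, 112, 138, 146 and 195 normalized counts in Ppef2+/+ and 72.0, 40.8, 105, 99.3 and 97.2 in Ppef2-/-. The Ppef2-/- library is again lower in sorts 2 to 5, but the sorts themselves now differ, from a mean of 71.6 in sort 1 to 146 in sort 5. The spread rose accordingly to 132 ± 45.6 and 82.8 ± 26.7 (SD, n = 5). With the sort means put back, the exact permutation p for unlinked libraries was 0.0635. On these values limma gave a log2 difference of −0.67 with an adjusted p of 1.00 without and 0.331 with the sort as a block, and voom on the reads with the block gave −0.66 with an adjusted p of 0.282. The call on the deposited values was thus lost in each fit that held the spread between sorts or the pairing.

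**Figure D2:**
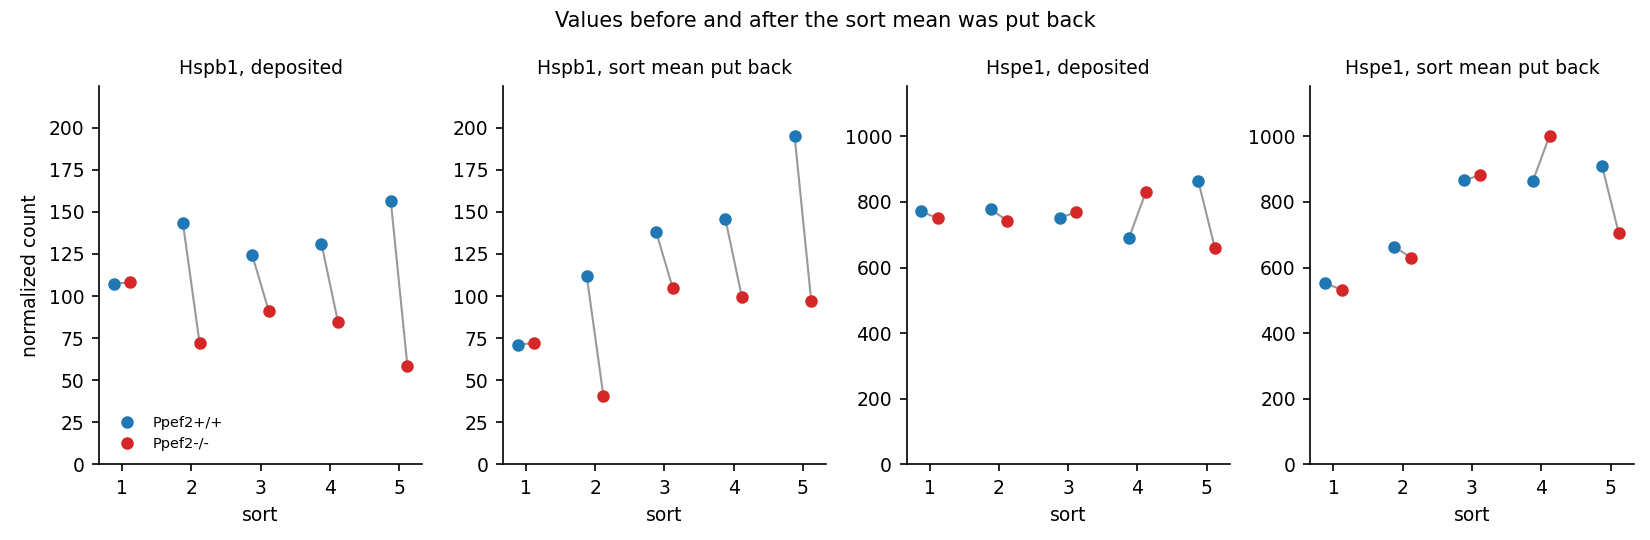
Hspb1 and Hspe1 in each sort as deposited and with the sort mean put back (normalized counts), with the libraries of a sort joined by a line. For Hspb1 the difference within a sort stays the same, but the mean of a sort ranges from 71.6 to 146 once it is put back, and for Hspe1 from 542 to 933.

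Hspa1a and Hspa1b, which encode nearly the same protein, are given together. The sum of both copies was 56270, 66234, 56464, 64223 and 64176 normalized counts for Ppef2+/+ in the order of the sorts. For Ppef2-/- it was 59376, 49413, 59183, 51424 and 51471. Thus Ppef2-/- was lower in sorts 2, 4 and 5 (−25.4, −19.9 and −19.8%) and higher in sorts 1 and 3 (5.52 and 4.82%). The means were 61473 ± 4735 and 54173 ± 4735 (SD, n = 5), which is 11.9% lower, with an exact permutation p = 0.0476 for unlinked libraries and p = 0.25 when genotypes were exchanged within sorts. For the single copies, limma gave a log2 difference of −0.17 (standard error 0.06, adjusted p = 0.185) for Hspa1a and of −0.20 (standard error 0.06, adjusted p = 0.145) for Hspa1b. With the block, limma's 95% interval was −0.31 to −0.03 for Hspa1a and −0.34 to −0.05 for Hspa1b, and the adjusted p was 0.995 for each. These intervals rest on a spread drawn toward that of genes of like level. Exact permutation within sorts gave p = 0.25 for each copy.

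Dnajb1 and Hsph1, the partners of Hsp70, differed in another set of sorts. From sort 1 to sort 5, Dnajb1 stood at 2270, 2839, 2641, 2166 and 2767 in Ppef2+/+ and at 2300, 1732, 1929, 2405 and 1804 in Ppef2-/- (normalized counts). Hsph1 had 2572, 3267, 3376, 2335 and 3433 in Ppef2+/+ and 2897, 2202, 2093, 3134 and 2036 in Ppef2-/-. For both genes, Ppef2-/- was lower in sorts 2, 3 and 5 and higher in sorts 1 and 4. Within sorts, the log2 difference ran from −0.71 to 0.15 for Dnajb1 and from −0.75 to 0.42 for Hsph1. The mean difference was −0.32 (standard error 0.10, adjusted p = 0.127 from limma) for Dnajb1 and −0.28 (standard error 0.14, adjusted p = 0.307 from limma) for Hsph1, and 0.995 with the block for each. The exact permutation p was 0.0476 for Dnajb1 and 0.151 for Hsph1 with unlinked libraries, and 0.25 and 0.312 when genotypes were exchanged within sorts. The differences of Hsph1 varied more between sorts than those of nearly all genes of its level, since of the 604 genes with a like mean, 0.166% had a larger SD of the differences within sorts, compared to 0.777% of 772 genes for Dnajb1.

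Hsp90aa1, known as the inducible Hsp90, had the signs of the constitutive Hspa8 in every sort, which the inducible Dnajb1 and Hsph1 had as well. Its normalized counts were 6059, 7005, 6923, 5450 and 7258 for Ppef2+/+ and 6814, 5868, 5951, 7424 and 5615 for Ppef2-/-, again from sort 1 to sort 5. Ppef2-/- was higher in sorts 1 and 4 and lower in sorts 2, 3 and 5, so that the differences cancelled to a mean log2 difference of −0.05 (standard error 0.09, adjusted p = 0.835 from limma, 95% interval −0.23 to 0.14). The blocked fit of limma gave an interval of −0.22 to 0.13 (adjusted p = 0.995). In the same order of sorts, Hspa8 had 25903, 28796, 29225, 23225 and 31003 in Ppef2+/+ and 28646, 25754, 25325, 31324 and 23547 in Ppef2-/-. It followed the same order of signs, and the differences of sort 4 (8100 normalized counts) and sort 5 (−7456) were its largest. The mean log2 difference of Hspa8 was −0.04 (standard error 0.08, adjusted p = 0.860 from limma, 95% interval −0.22 to 0.14), and the blocked interval was −0.21 to 0.13 (adjusted p = 0.997 from limma).

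Hsp90ab1 was the steadiest of the abundant members, with 12788 to 14758 normalized counts in Ppef2+/+ and 12708 to 14678 in Ppef2-/- libraries and a difference within sorts between −0.22 and 0.20 on the log2 scale. Hspd1 had 1254 to 1587 in Ppef2+/+ and 1265 to 1598 in Ppef2-/- libraries, again with Ppef2-/- higher in sorts 1 and 4 and lower in the other sorts. Hspe1 had 691 to 863 and 658 to 829, with Ppef2-/- higher in sorts 3 and 4. The 95% intervals of the mean log2 difference from limma were −0.13 to 0.08 for Hsp90ab1, −0.21 to 0.10 for Hspd1 and −0.18 to 0.10 for Hspe1, and the adjusted p was 0.809, 0.725 and 0.785. With the sort as a block these intervals were −0.15 to 0.09, −0.21 to 0.10 and −0.19 to 0.11, with adjusted p from limma of 0.997, 0.995 and 0.995. For Hspe1, whose reads were resolved (3314 in Ppef2+/+ and 4613 in Ppef2-/- libraries), the level with the sort means put back was 771 ± 154 in Ppef2+/+ and 750 ± 190 in Ppef2-/- (SD, n = 5).

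**Figure D3:**
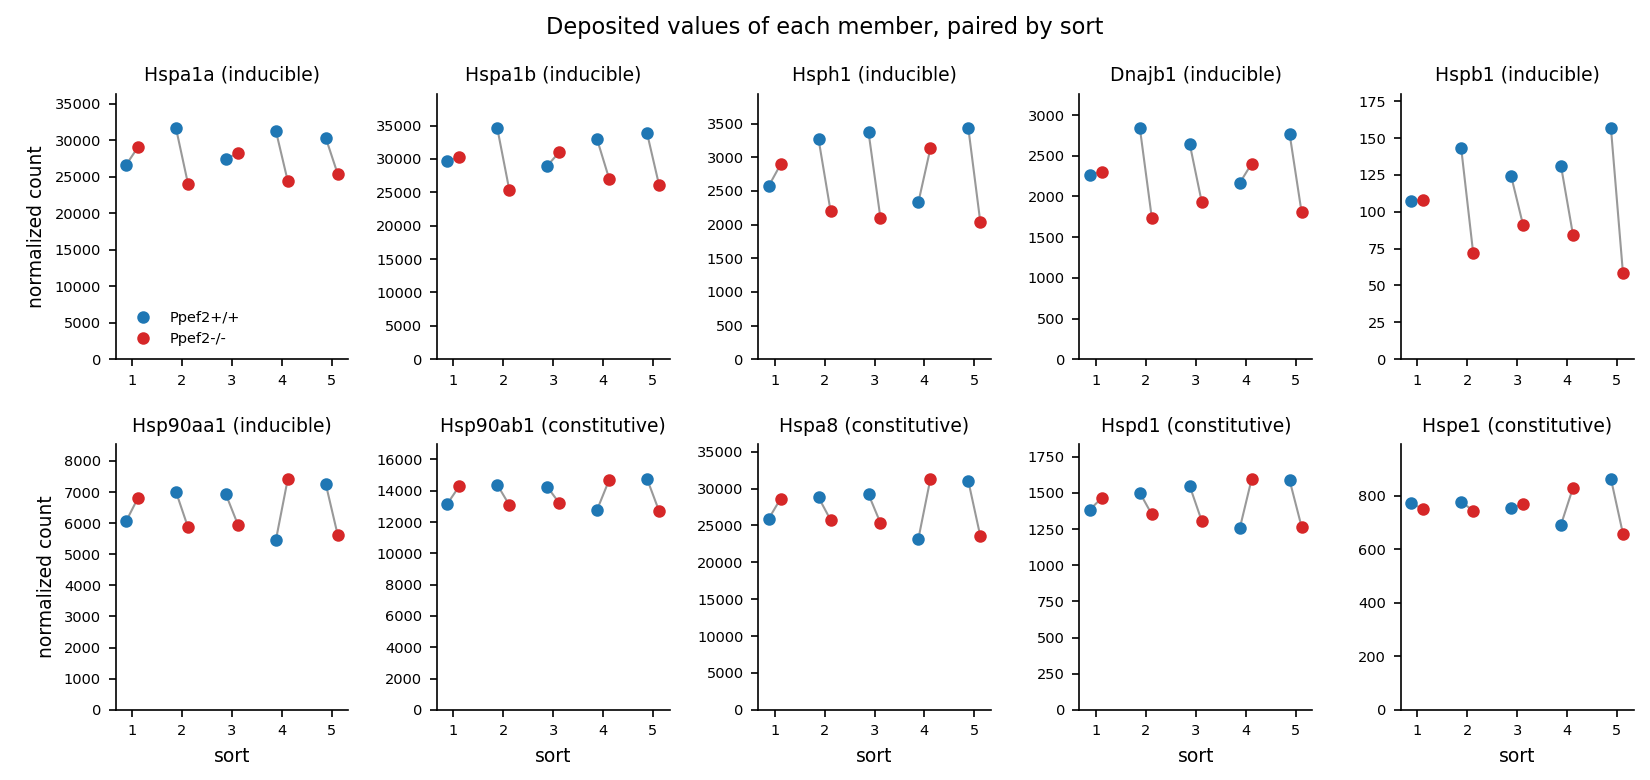
Deposited normalized counts of each member in the Ppef2+/+ (blue) and Ppef2-/- (red) library of each sort, joined by a line, on axes that start at 0. Ppef2-/- is lower for all 10 members in sorts 2 and 5, and Hspa1a, Hspa1b and Hspb1 are lower in sort 4 whereas the other 7 are higher.

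Sort by sort, the direction was shared by most members but changed between sorts. All 10 were lower in Ppef2-/- in sorts 2 and 5, and 9 were higher in sort 1, where Hspe1 differed by −0.04 on the log2 scale. In sort 3, 7 were lower and Hspa1a, Hspa1b and Hspe1 were higher, and in sort 4 only 3 were lower (Hspa1a, Hspa1b and Hspb1). The median log2 difference of the 6 inducible members was 0.08, −0.51, −0.33, −0.07 and −0.50 in sorts 1 to 5. That of the 4 constitutive members was 0.10, −0.14, −0.16, 0.31 and −0.36. The inducible median was below the constitutive median in 5 of 5 sorts, by 0.02 in sort 1, 0.36 in sort 2, 0.17 in sort 3, 0.37 in sort 4 and 0.14 in sort 5, and the gap between the medians of the mean differences was −0.20. For comparison, the median over the 1044 genes with a mean of at least 1000 was 0.01, −0.02, −0.03, 0.06 and −0.03, so both classes moved in the direction of the abundant genes in sorts 1, 2, 3 and 5, but by a larger amount. No test was made on these medians, since the members were chosen with results known and are not replicates.

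**Figure D4:**
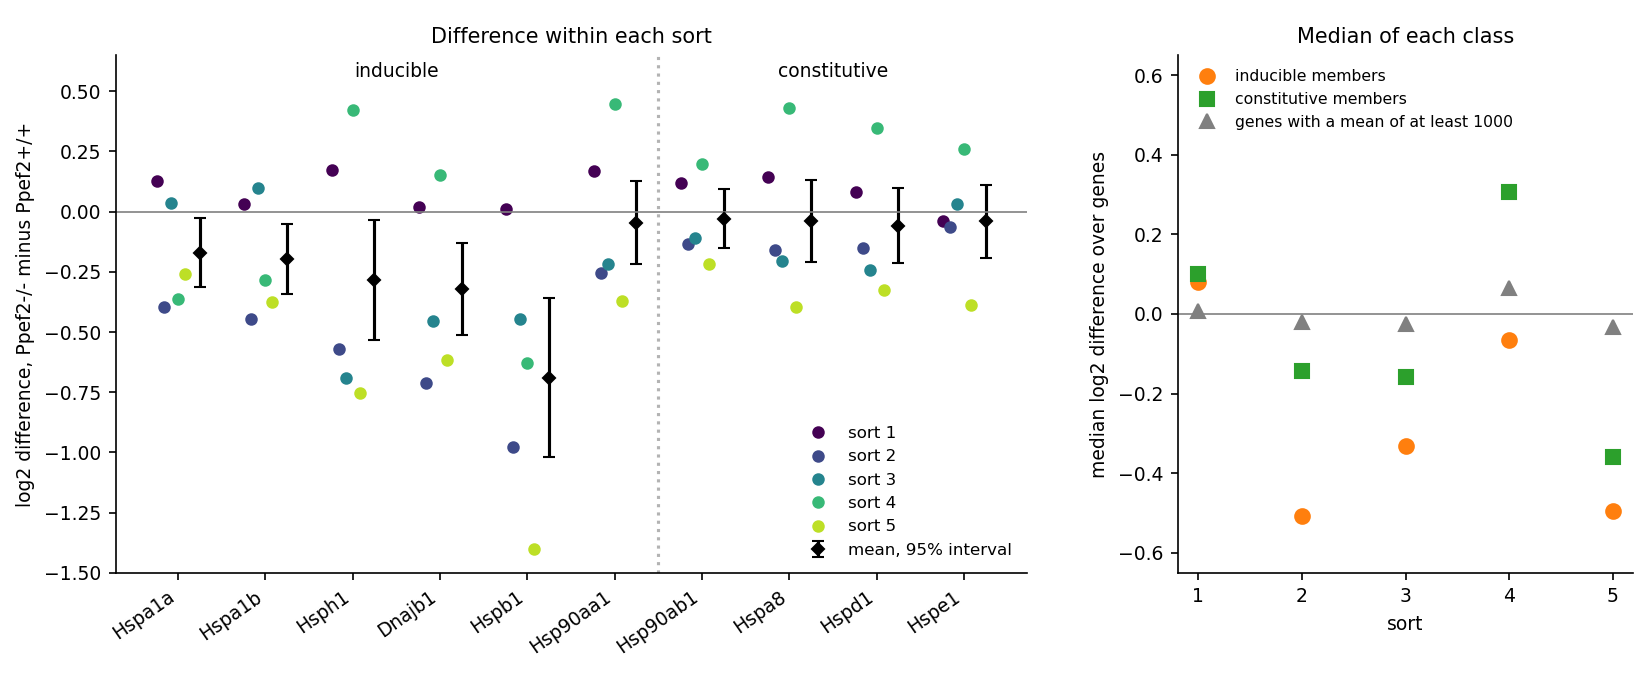
Left, log2 difference (Ppef2-/- minus Ppef2+/+) of each member in each sort (colours) and its mean with the 95% interval from the blocked limma fit (diamonds). The intervals rest on a spread drawn toward that of genes of like level and understate the spread of the members. Right, median of the 6 inducible members, the 4 constitutive members and the genes with a mean of at least 1000 in each sort, with the inducible median below the constitutive one in each sort.

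The members formed 2 blocks and a link between them when compared over the 10 libraries, which enter as 5 mirrored pairs, so the values are a description. Hsp90aa1, Hsp90ab1, Hspa8 and Hspd1 correlated with each other at Pearson r = 0.967 to 0.99, inducible or constitutive. Hspa1a, Hspa1b and Hspb1 correlated at 0.834 to 0.958, the highest value being that of the copies that share reads. Between both blocks r was 0.053 to 0.527. Dnajb1 and Hsph1 correlated at 0.941 with each other, at 0.746 to 0.935 with the first block and at 0.343 to 0.839 with the second. Hspe1 followed the first block at 0.796 to 0.848. In these values Hsp90aa1 was closest to the constitutive Hsp90ab1, Hspa8 and Hspd1, but it also correlated at 0.912 with the inducible Hsph1. The 2 blocks had opposite signs in sort 4, with the same sign for all members of a block. In sort 3, Hspa1a (0.04) and Hspa1b (0.10) were higher in Ppef2-/- whereas Hspb1 and the 4 genes of the other block were lower.

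**Figure D5:**
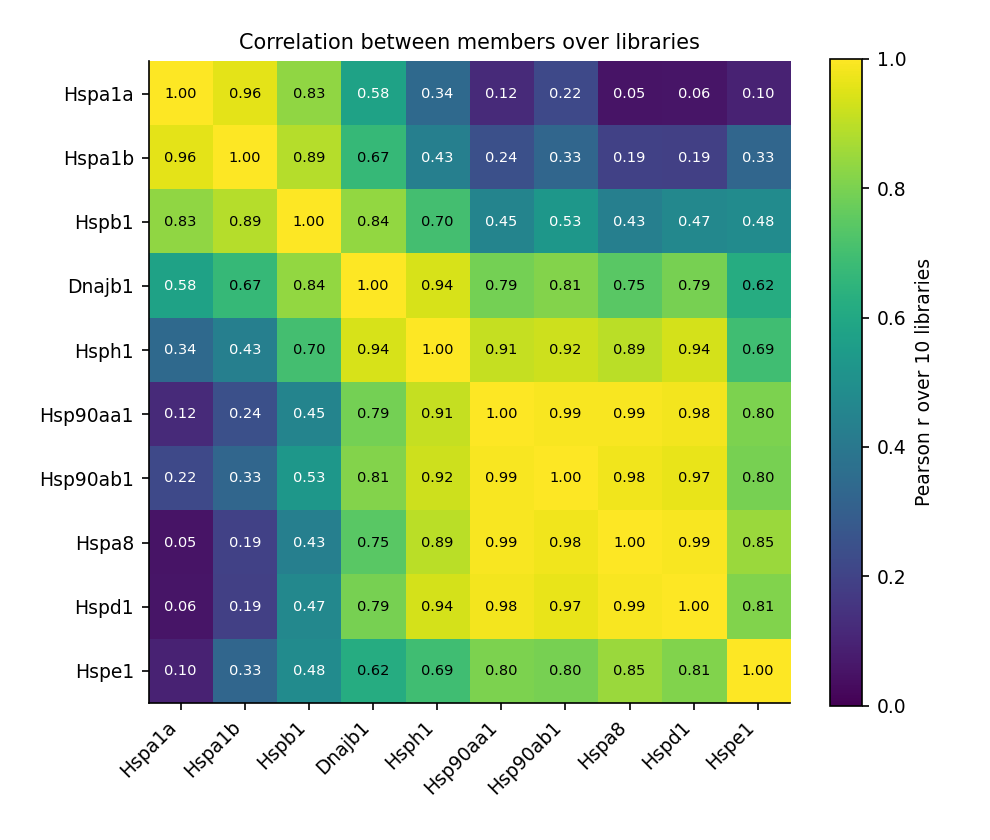
Pearson correlation of log2 normalized counts between members over the 10 libraries (colour scale from 0 to 1). Hspa1a, Hspa1b and Hspb1 form 1 block and Hsp90aa1, Hsp90ab1, Hspa8 and Hspd1 another, with Dnajb1 and Hsph1 related to both.

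Outside the members, the genes whose pattern was most like the mean of the inducible members over the 10 libraries were Pecam1 (r = 0.989), 1500015A07Rik (0.988), Plin2 (0.980), Dhdds (0.979), Nqo2 (0.975), Dock11 (0.974), Naa50 (0.973) and Dph6 (0.969). These were picked as the highest of all genes in the table, so the values are a description. Of the inducible members, Dnajb1 correlated best with the mean of the others (0.933) and Hsp90aa1 least (0.572). For the constitutive members the most similar genes were Zfp952 (0.992), Agmo (0.986), Actr3 (0.986), a subunit of the Arp2/3 complex, and Atp1b3 (0.985), and none of these 12 genes was called by limma (adjusted p between 0.156 and 0.916).

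In the wider chaperone network no gene passed the test. Of 94 genes with values in 7 lists (heat shock factors, further heat-inducible chaperones, co-chaperones of Hsp70 and Hsp90, TRiC and prefoldin, mitochondrial chaperones and chaperones of the endoplasmic reticulum), 0 were called by limma at an adjusted p under 0.05. At an unadjusted p under 0.05 there were 11 higher and 6 lower genes, or 18.1%, beside 17.5% of all genes (9.2% higher and 8.33% lower). With the sort as a block, 0 were called and 3 were higher and 0 lower at an unadjusted p under 0.05, beside 2.3% of all genes higher and 1.99% lower (4.29% in all). Voom on reads called 0 of the 70 resolved genes, with 1 at an unadjusted p under 0.05, beside 4.57% of the 9603 resolved genes. The median log2 difference of the 94 genes was 0.01, compared to 0.00 over all genes.

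The level of Hsf1, the main heat shock factor, was 237 ± 13.2 in Ppef2+/+ and 238 ± 13.2 in Ppef2-/- (normalized counts, SD, n = 5) (log2 difference 0.01, adjusted p = 0.970 from limma, 0.999 blocked). Of 5 genes of this list 3 had values (Hsf1, Hsf2 and Hsbp1), all with a higher mean in Ppef2-/-. Among 11 further heat-inducible chaperones with values, 4 had a lower and 7 a higher mean, with Dnaja1, a J-domain protein and the most abundant of them, at 0.04 (adjusted p = 0.890 from limma, 0.997 blocked), and Hspa2, an Hsp70 relative known from testis, at −0.27 (adjusted p = 0.158 from limma, 0.995 blocked). Bag1, a nucleotide exchange factor of Hsp70, was lower in 5 of 5 sorts, as were 2.92% of all genes. Its mean log2 difference was −0.12 (adjusted p = 0.111 from limma, 0.995 with the block). Among the Hsp90 partners, 6 of 14 were higher and 2 lower at an unadjusted p under 0.05, beside 9.2% and 8.33% of all genes, but 1 was higher and 0 lower with the sort as a block. They were led by the myosin chaperone Unc45a (0.18, adjusted p = 0.0716 from limma, 0.995 with the block). Unc45a was higher in 5 of 5 sorts, as were 351 of all 10767 genes. Cct6a, a subunit of the TRiC chaperonin, stood at 0.13 (adjusted p = 0.0635 from limma, 0.995 with the block). The most abundant chaperone of the endoplasmic reticulum, Hspa5 (BiP), had 13298 ± 1125 and 13022 ± 1125 normalized counts and differed by −0.03 (adjusted p = 0.852 from limma, 0.997 blocked).

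The constitutive members were higher in Ppef2-/- in sort 4 and lower in sort 5, and the other lists differed in this. In sort 4 the median log2 difference was 0.26 over 19 chaperones of the endoplasmic reticulum, 0.25 over the 11 further heat-inducible chaperones and 0.23 over the 14 TRiC and prefoldin genes. In sort 5 the same lists had medians of −0.19, −0.35 and −0.13. The mitochondrial list had medians of −0.08 in sort 4 and 0.01 in sort 5, and the heat shock factors of 0.03 and 0.11. The co-chaperones of Hsp70 had medians of 0.18 and −0.02 and those of Hsp90 of 0.07 and −0.00095. Hspa5 itself differed by 0.30 in sort 4 and by −0.28 in sort 5, close to the values of Hspa8 (0.43 and −0.40).

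Immediate early genes and markers of other cells differed between the libraries of a sort and are given beside the members. Among 21 immediate early genes, which are known to respond to tissue digestion, 19 had a higher mean in Ppef2-/- (median 0.11), as did 50.5% of all genes. At an unadjusted p under 0.05 from limma, 7 were higher and 1 lower, beside 9.2% and 8.33% of all genes. With the sort as a block, 6 were higher and 0 lower, beside 2.3% and 1.99% of all genes, and 0 were called by limma. Their sum was 118873 to 137136 normalized counts in Ppef2+/+ and 122685 to 140948 in Ppef2-/-. By their means Fos (18233 normalized counts) ranked 19, Jun (14508) ranked 24 and Egr1 (4073) ranked 135 of all genes. Of the 21 genes 1, Ier3, was called higher (0.48, adjusted p = 0.0182 from limma, 0.835 with the block), beside 0.957% of all genes called in either direction. The median of the 21 genes was higher in Ppef2-/- in sorts 1, 3 and 5 (0.20, 0.42 and 0.25) and lower in sorts 2 and 4 (−0.06 and −0.12), an order of signs that differs from that of either class. The sum over 10 of 12 pancreatic enzymes with values was 656 in the Ppef2-/- library of sort 5, whose Ppef2+/+ partner had each of them at the floor, 330 and 13.1 in sort 1, 58.0 and 270 in sort 2, and alike in sorts 3 and 4 (158 to 160). Without the sort means these sums are no levels, and alike values in sorts 3 and 4 can also stand for no reads. Ppef2, for example, had 36.7 normalized counts but 0 reads in the Ppef2-/- library of sort 4. Values at the floor may have been raised to it, so differences such as that of sort 5 can be understated. The part of the immediate early genes and pancreatic enzymes in the differences of the chaperones was not tested. The sum over 13 of 15 macrophage and monocyte markers was 2925 to 3246 in Ppef2+/+ and 2898 to 3219 in Ppef2-/-, that over 8 of 9 pDC markers 1415 to 1565 and 1273 to 1419, that over 7 of 8 cDC2 markers 1693 to 1985 and 1767 to 2059, and that over 6 of 10 erythroid and platelet markers 181 to 303 and 200 to 322. Of the 8 pDC markers 1, Tcf4, was called lower (−0.31, adjusted p = 0.0182 from limma, 0.711 with the block), beside 0.483% of all genes. In such bulk samples, fewer cells that express a gene and less RNA per cell cannot be told apart.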

How the data were processed

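RNA of CD8+ DCs was sequenced from 5 sorts per genotype, and libraries were assigned to genotype by their labels. The authors sequenced 50 bp single-end reads, aligned them to mm10 and counted them in Partek Genomics Suite 6.6 with RefSeq genes. The authors normalized these counts with DESeq2, raised values under 1 to 1 and dropped genes in which neither genotype mean reached 10. The study's methods name HISAT as the aligner, whereas the submitters' processing notes list TopHat2 2.0.3. What the authors deposited is thus a signal of normalized counts, of which 0 columns were left unused. The step that took out the sort means is not named in the sources used here. Totals per library lie between 5295568 and 5482320 and are no read depths.

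The main test was limma 3.58.1 (R 4.3.3, eBayes with a trend, two-sided, Benjamini-Hochberg adjustment over 10767 genes) on log2(normalized count + 1), without a term for the sort like the study's one-way model. This scale understates the change of low genes. Libraries were paired by sort number, and the deposited values show this pairing. Across genes, the deviations of 2 paired libraries from the mean of their genotype correlated at −1.00 in each sort. Reads were calculated back as whole multiples of the value of 1 read plus 1 constant per sort and gene, for values under 1000. Both steps were tested on simulated data. Exact permutation tests of single members compared genotype means, without links or within sorts. P-values without the block or for unlinked libraries rest on deposited values that lack the spread between sorts. Those of limma rest on a spread drawn toward that of genes of like level. Lengths and overlaps came from GENCODE M21 (99.2% of genes matched) and promoters from RefSeq. Alternatives were the block, pseudocounts of 0.1 and 10, a mean of at least 50, other scalings, no trend, values with sort means put back, voom on reads, and each library left out. Leaving out both libraries of a sort was added after seeing the data.

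The members and gene lists were chosen with earlier results of these data known. Named genes are the members and the 8 and 4 genes most similar to either class. From each list, the genes called by limma or else those with the smallest p and the highest mean were picked, but not all of these are given. Fos, Jun and Egr1 were named as immediate early genes, and Ppef2 as the check of the labels.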

Additional observations from a re-analysis of the deposited data

How the results depend on the processing

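The count of 103 genes called by limma fell to 1 with the sort as a replicate block, to 1 with the sort means put back, to 2 with both, and to 3 with voom on reads and the block, and rose to 193 without a trend. It was 1 to 23 with a library left out and 0 to 192 with both libraries of a sort left out (1767 genes at an unadjusted p under 0.05 without sort 2, where it was 0). The count of 1 called member (Hspb1) became 0 under the block, without a trend, with the sort means put back, with both, and with voom, and was 0 to 1 with a library or sort left out. Hspb1 stayed called without the Ppef2-/- library of sort 1 or without sort 1, and was lost when any other library was left out. Its log2 difference was −0.51 without sort 5 and −0.86 without sort 1.

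Of 226 values of single members under these alternatives, 197 kept direction and side of the threshold, 18 lost the call (all Hspb1) and 11 changed sign. Without a library the log2 difference was −0.11 to −0.0043 for Hsp90aa1, −0.057 to −0.0047 for Hsp90ab1, −0.098 to 0.0089 for Hspa8, −0.11 to −0.024 for Hspd1 and −0.079 to 0.005 for Hspe1. Without a sort these ranges were −0.17 to 0.035, −0.085 to 0.018, −0.15 to 0.052, −0.16 to 0.0091 and −0.12 to 0.046, with the lowest value without sort 4 and the highest without sort 5 in each. Hspa1a, Hspa1b, Hsph1, Dnajb1 and Hspb1 stayed lower in Ppef2-/- under every alternative. The gap between the class medians was −0.25 to −0.15 with a sort left out and −0.20 under each pseudocount and rescaling. The pairing by sort also ended the calls of Ier3 and Tcf4, and moved the exact permutation p of Hspa1b, Dnajb1 and the sum of both Hspa1 copies from 0.0476 to 0.25.

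With lengths of the longest transcript, ranks per kb were 15 for Hspa1b, 18 for Hspa1a, 20 for Hspa8, 40 for Hsp90ab1, 150 for Hsp90aa1, 349 for Hspe1, 361 for Dnajb1, 482 for Hspd1, 496 for Hsph1 and 2862 for Hspb1. The order among the middle members thus changed, and the libraries of Hspa8 overlapped with those of both Hspa1 copies. Values of 1000 and above could not be resolved to reads, so for 8 members the spread between sorts is unknown. With 5 sorts, exchange of genotypes within sorts cannot give p under 0.05.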
